A study of Mus musculus with 24 samples.

Results

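The interleukin-1 (IL-1) receptor system was followed through 9 genes, Il1rl1, Il33, Il1r1, Il1rap, Il1rn, Il6, Il11, Ptgs2 and Slpi, of the 27670 genes or other named features on the array. They were chosen by the large differences of Il1rl1 and Slpi log2 ratios between CHIP null and wildtype cells on these same arrays, so every difference between the genotypes is given below as a description, with no test. The array carried 18 probes for the 9 genes, of 41174 non-control probes in all, and each probe was read apart from the others. Of these 18 probes, 13 passed the filter on dim probes and were tested among 19356 probes, and all 9 genes kept at least 1 probe. Because a probe bright in only 1 group passed that filter, the 13 are not a neutral sample of the 18.

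The samples were mouse embryonic fibroblasts, connective tissue cells grown from day 13.5 C57BL6 embryos whose parents each carried 1 intact and 1 deleted copy of Stub1. Stub1 encodes CHIP, which attaches ubiquitin to proteins held by the chaperones HSP70 and HSP90. The 8 groups of 3 arrays were CHIP null cells heated at 43 °C for 30 min, CHIP null cells kept at 37 °C for that time, wildtype cells heated for 30 min and wildtype cells kept at 37 °C for 30 min, and the same 4 groups at 240 min. The medium of all groups held β-mercaptoethanol. The labels call the 3 samples of a group biological replicates but do not give the embryo or culture of each, so the p-values measure the spread between these samples, which may be partly technical. Every array carried Cy5-labelled sample RNA and, in Cy3, the same Universal Mouse Reference RNA as a reference, and a level below is the log2 ratio of Cy5 over Cy3 unless called a Cy5 intensity.

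IL-1 and its relative IL-33 act through paired receptors: Il1r1 encodes the receptor chain that binds IL-1, Il1rl1 encodes ST2, the chain that binds IL-33, and Il1rap encodes the chain that both need to signal. Il1rn encodes an antagonist that occupies the IL-1 receptor without signalling, and mouse Il1rl1 also makes a soluble ST2 that binds IL-33 without passing a signal on. In fibroblasts, signalling through IL-1 receptors acts by way of NF-kB and AP-1 to raise cytokines such as Il6 and Il11 and the prostaglandin synthase Ptgs2 (COX-2). Slpi encodes a secreted inhibitor of neutrophil elastase and cathepsin G, proteases that can cut IL-1 family cytokines.

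In GRCm38.p6, the build of the RefSeq table used for names, Il1rl1 lies at chr1:40404864-40465418, near Il1r1 at chr1:40222480-40316201, and Slpi lies at chr2:164354070-164356507. The other members are Il1rap at chr16:26581509-26730128, Il1rn at chr2:24336860-24351491, Il33 at chr19:29925113-29960718, Il6 at chr5:30013114-30019975, Il11 at chr7:4772373-4782907 and Ptgs2 at chr1:150100031-150108234. The probes' own positions and sequences are not given in the files, so which exons they read was not examined.

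The RefSeq promoter table for GRCm38.p6 held 15 entries for the 9 genes, and the 250 bases before the start are shown for the entries of Il1rl1 and Slpi, the genes with the widest range over the 8 groups, and for Il6, a textbook IL-1 target. Il1rl1 has 2 entries, and both are shown; which of them belongs to which transcript variant was not examined. Capitals mark a match, on either strand, to AP-1 (TGANTCA), C/EBP (TTGCNNAA), the cAMP response element (TGACGTCA), a heat shock element core (GAANNTTC), NF-kB (GGANNTTCC) or the TATA box (TATAAA).
Il1rl1 first entry, chr1:40429320-40429569, plus strand: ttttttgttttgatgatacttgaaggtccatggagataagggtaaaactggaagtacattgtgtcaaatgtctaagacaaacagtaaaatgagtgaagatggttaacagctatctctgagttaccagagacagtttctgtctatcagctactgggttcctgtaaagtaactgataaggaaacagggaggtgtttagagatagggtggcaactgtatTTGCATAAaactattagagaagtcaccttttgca
Il1rl1 second entry, chr1:40439379-40439628, plus strand: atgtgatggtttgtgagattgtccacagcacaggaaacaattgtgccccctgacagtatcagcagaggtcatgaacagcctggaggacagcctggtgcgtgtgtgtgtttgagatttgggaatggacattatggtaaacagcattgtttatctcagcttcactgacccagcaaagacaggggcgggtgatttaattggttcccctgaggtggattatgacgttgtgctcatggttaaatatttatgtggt
Slpi, chr2:164356508-164356757, minus strand: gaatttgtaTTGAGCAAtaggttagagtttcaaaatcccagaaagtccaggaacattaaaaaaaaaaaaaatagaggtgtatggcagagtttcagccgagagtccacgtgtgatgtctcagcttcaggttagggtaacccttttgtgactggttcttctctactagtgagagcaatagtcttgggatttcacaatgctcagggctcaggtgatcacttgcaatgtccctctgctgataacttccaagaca
Il6, chr5:30012864-30013113, plus strand: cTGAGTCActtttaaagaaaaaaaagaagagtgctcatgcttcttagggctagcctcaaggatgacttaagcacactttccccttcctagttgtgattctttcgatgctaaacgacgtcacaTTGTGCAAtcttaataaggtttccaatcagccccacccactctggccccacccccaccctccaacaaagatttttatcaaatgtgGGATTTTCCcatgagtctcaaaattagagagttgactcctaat
The first Il1rl1 window held a C/EBP match at -34 to -27 from the start, and the second held none of the 6 motifs. The Slpi window held a C/EBP match at -241 to -234. The Il6 window held AP-1 at -249 to -243, C/EBP at -128 to -121 and NF-kB at -43 to -35. Over 32851 promoter windows of the same length, C/EBP was found in 9.56%, AP-1 in 6.75%, NF-kB in 3.59%, the TATA box in 12.4%, the heat shock element core in 6.69% and the cAMP response element in 1.55%. The only heat shock element core among the 15 entries stood in 1 of those of Il1r1. No overlap between motifs was found in the windows shown, and a match describes letters only.

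The deleted gene was read first. Stub1 stood at -2.43 to -1.72 on the 12 CHIP null arrays, against -0.24 to -0.01 on the 12 wildtype arrays. All 12 fibroblast markers listed were tested, and at least 9 of them were well above background on all 3 arrays of each group. Replicate arrays correlated at 0.978 to 0.994 over 24 pairs. The arrays labelled 30 min were dimmer, with 33.7% to 42.6% of probes well above background in Cy5, than those labelled 240 min, with 44.9% to 49.6%. At each time heated arrays had the lower range, 44.9% to 46.5% against 47.3% to 49.6% unheated at 240 min, and 33.7% to 39.3% against 37.6% to 42.6% at 30 min. The authors' deposited value table pairs each sample with the scanner file of the other time label, and which label holds is not known, so 30 and 240 min below are the scanner files' labels. The times also fall on separate slides, so time and slide cannot be told apart, and no slide holds both genotypes under 1 treatment.

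The 6 wildtype arrays labelled 30 min stood apart from the other 18 in sex-linked transcripts. On all 6, the Y-linked Eif2s3y (0.05 to 0.36) and Ddx3y (0.39 to 0.55) were well above background and Xist (-3.49 to -2.94) was not. On the other 18 arrays Xist stood at -1.99 to -1.33 and was well above background, and neither Y-linked gene was. Macrophage markers differed between the genotypes at both times. At 30 min 11 of 14 were well above background in unheated wildtype cells and 6 of 14 after heat. In CHIP null cells at 30 min 7 of 14 were so unheated and 3 of 14 after heat. The log2 of their summed Cy5 intensity was 10.37 to 10.43 in unheated CHIP null cells at 30 min, against 12.31 to 12.47 in unheated wildtype cells, and 10.09 to 10.25 in heated CHIP null cells, against 10.78 to 10.86 in heated wildtype cells. At 240 min 10 of 14 macrophage markers were well above background in wildtype cells, unheated and heated, against 8 of 14 in CHIP null cells. Their log2 summed Cy5 intensity was then 9.74 to 9.78 in unheated CHIP null cells, against 10.21 to 10.36 in wildtype cells. After heat it was 9.86 to 9.98 in CHIP null cells, against 10.40 to 10.49 in wildtype cells. No array showed Itgam or Ptprc well above background. Of cell types that carry ST2, 1 to 5 of 9 mast cell markers and 1 to 4 of 8 T and innate lymphoid markers were well above background on all 3 arrays of a group, while Kit, Tpsab1, Ms4a2 and Fcer1a of the first list and Cd4, Il7r, Foxp3 and Il2ra of the second were so on no array. Fibroblast markers went the other way in sum, with single markers' genotype differences on both sides of 0. Their log2 summed Cy5 intensity at 30 min was 15.81 to 16.06 in unheated CHIP null cells, against 15.18 to 15.58 in wildtype cells. After heat it was 15.96 to 16.06, against 14.99 to 15.48. At 240 min it was 15.99 to 16.05 against 15.73 to 15.77 unheated, and 16.04 to 16.07 against 15.78 to 15.85 after heat. The comparisons below that rest on the 6 wildtype arrays at 30 min carry their difference in sex-linked transcripts and in macrophage and fibroblast markers. The genotype comparisons at 240 min carry differences in macrophage and fibroblast markers too. The part of these differences in the comparisons was not tested.

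Il1rl1 was lowest in wildtype cells at 30 min and high in all other groups. Its brightest probe, A_51_P339793, which the files assign to the shorter transcript variant 2 that encodes soluble ST2 in mouse, read 3.90, 3.69 and 3.82 in unheated CHIP null cells at 30 min, against 1.43, 1.39 and 1.11 in unheated wildtype cells. After 30 min of heat it read 3.78, 3.50 and 3.62 in CHIP null cells, against 1.32, 1.45 and 1.28 in wildtype cells. The groups did not overlap, and the difference was 2.49 (SE 0.08) at 37 °C, a 5.62-fold ratio, and 2.28 after heat, a 4.86-fold ratio. In bulk RNA of this kind, more cells with a transcript and more transcript per cell cannot be told apart.

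The Cy5 intensities alone showed the same order. Above background they were 1160, 944 and 1370 units in unheated CHIP null cells at 30 min, against 115, 80.2 and 58.3 in wildtype cells. At 240 min they were 5280, 3630 and 4620 units in unheated CHIP null cells, against 5400, 4350 and 4160 in wildtype cells. The Cy3 reference for this probe was not well above background on 5 of the 6 wildtype arrays at 30 min, and the ratio moved with the processing: the 30 min difference at 37 °C was 2.26 with a smaller offset, 2.82 with median centring in place of loess and 1.35 with the scanner software's own ratio.

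At 240 min the genotypes stood together. The brightest Il1rl1 probe read 4.65, 4.58 and 4.56 in unheated CHIP null cells, against 4.45, 4.59 and 4.69 in wildtype cells, and 4.76, 4.64 and 4.60 in heated CHIP null cells, against 4.80, 4.61 and 4.68 in heated wildtype cells. These ranges overlapped, with differences of 0.02 at 37 °C and -0.03 after heat. Ordered by mean, wildtype cells at 30 min were lowest (1.31 ± 0.17 unheated, 1.35 ± 0.08 heated), CHIP null cells at 30 min stood between (3.63 ± 0.14 heated, 3.80 ± 0.11 unheated), and the 4 groups at 240 min were highest, with means of 4.58 to 4.70 (SD, n = 3 each). The place of CHIP null cells at 30 min below the 240 min groups depended on the processing: the step between the unheated CHIP null groups, 240 min minus 30 min, was 0.79 here, 0.18 with a smaller offset and -0.44 with the scanner software's ratio. Neighbouring groups within each of those 3 levels overlapped.

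The probe A_52_P484194, assigned to the longer variant 1 that encodes the membrane receptor, was also lowest in wildtype cells at 30 min. It read 0.45, 0.72 and 0.76 in unheated CHIP null cells at 30 min, against -0.37, -0.36 and -0.27 in wildtype cells, a difference of 0.97. With a smaller offset this difference was 1.38 and with the scanner software's ratio 1.71, and the heated difference of 0.68 became 1.19 and 1.82. At 240 min it read 1.48, 1.50 and 1.38 in unheated CHIP null cells, against 1.52, 1.47 and 1.33 in wildtype cells, a difference of 0.01. A dimmer variant 2 probe, A_52_P19955, was well above background on no wildtype array at 30 min. It was at least 1.33-fold higher in unheated CHIP null cells than in wildtype cells at 30 min, and at least 1.17-fold higher in heated ones, where the wildtype level is a bound: the higher of the array's detection level and the probe's own signal. Its log2 differences of 0.42 unheated and 0.35 heated became 1.07 and 1.03 with a smaller offset and 4.32 and 3.59 with the scanner software's ratio, so their size is not settled. At 240 min its differences were 0.12 at 37 °C and 0.01 after heat. Over the 24 arrays the 3 Il1rl1 probes correlated pairwise at 0.869 to 0.926, a description in which all points share slides and reference.

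**Figure D1:**
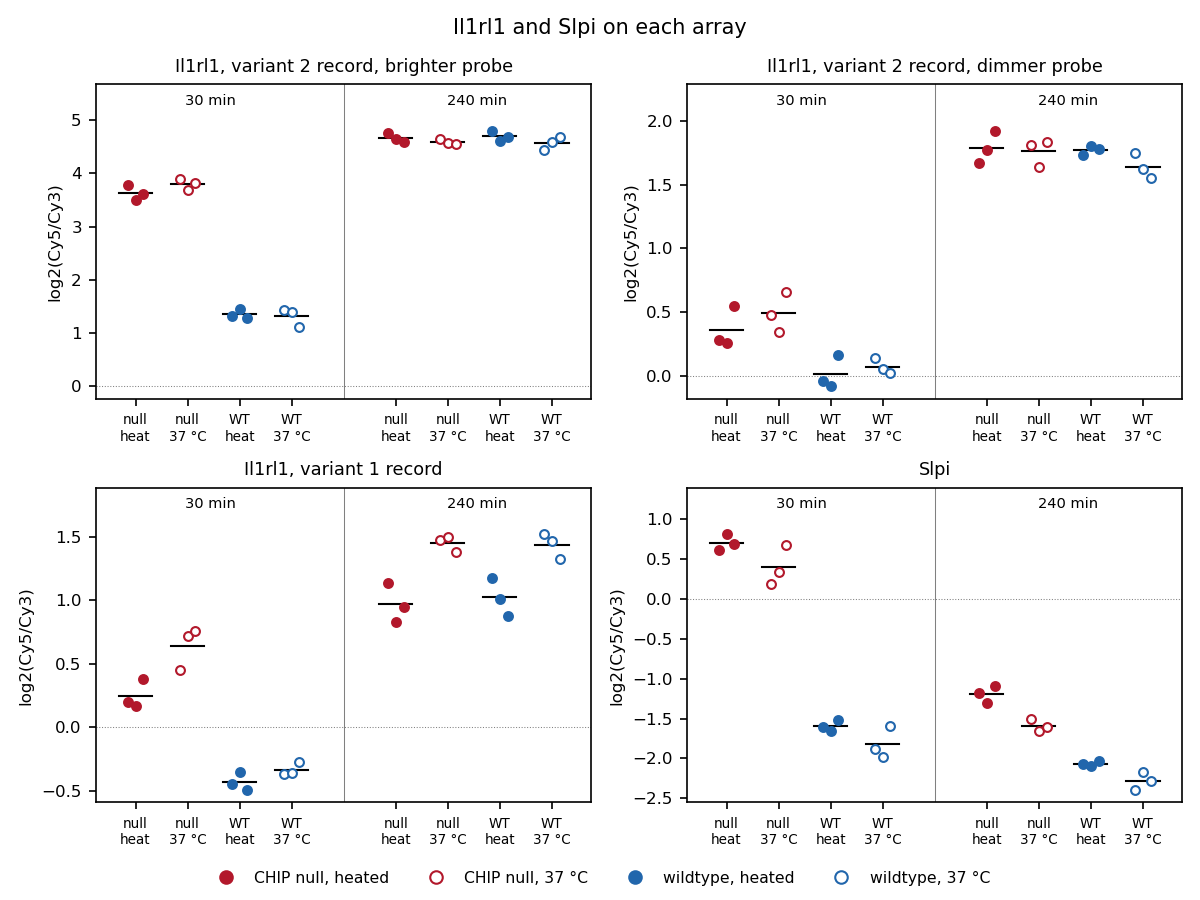
Log2 ratio of Cy5 over Cy3 on each of the 24 arrays (points; bars mark group means, n = 3) for the 3 Il1rl1 probes and the tested Slpi probe, by group. The wildtype arrays at 30 min lie lowest for all Il1rl1 probes, while the CHIP null arrays at 30 min lie highest for Slpi.

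Slpi, the protease inhibitor, was the other gene with a large difference, and its order was another. The tested probe, A_52_P472324, read 0.19, 0.34 and 0.68 in unheated CHIP null cells at 30 min, against -1.88, -1.98 and -1.59 in wildtype cells. After 30 min of heat it read 0.62, 0.81 and 0.69 in CHIP null cells, against -1.61, -1.66 and -1.52 in wildtype cells. The groups were far apart, with differences of 2.22 (SE 0.09) at 37 °C, a 4.66-fold ratio, and 2.30 after heat, a 4.94-fold ratio.

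At 240 min the Slpi difference was smaller and still without overlap. Unheated CHIP null cells read -1.50, -1.65 and -1.61, against -2.39, -2.17 and -2.28 in wildtype cells, and heated CHIP null cells read -1.18, -1.31 and -1.09, against -2.07, -2.10 and -2.03 in heated wildtype cells. The differences were 0.69 and 0.88, which are 1.62-fold and 1.84-fold. Thus Slpi was higher in CHIP null cells in all 4 comparisons, 2 of which use no wildtype array at 30 min. At 240 min the genotypes also differed in macrophage and fibroblast markers, as given above, and in other lists, among them mesothelial, epithelial and neutrophil markers. Of 6 mesothelial markers, 6 were well above background in wildtype cells, against 3 in unheated and 2 in heated CHIP null cells. The log2 summed Cy5 intensity of epithelial markers was 10.22 to 10.43 in unheated CHIP null cells, against 10.77 to 11.01 in wildtype cells. For neutrophil markers it was 8.25 to 8.42, against 8.70 to 8.87. The part of these marker differences in the Slpi values was not tested. In Cy5 intensity, Slpi in unheated CHIP null cells at 240 min gave 204, 127 and 165 units, against 61.6, 66.3 and 54.1 in wildtype cells. The size depended on the processing: at 30 min and 37 °C it was 2.89 with a smaller offset, 2.63 with median centring and 3.32 with the scanner software's ratio. The other Slpi probe, A_51_P135148, was well above background on no array.

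Ordered by mean, Slpi was highest in CHIP null cells at 30 min (0.71 ± 0.09 heated, 0.40 ± 0.25 unheated, SD, n = 3). The remaining groups stood from -1.19 ± 0.11 in CHIP null cells heated for 240 min to -2.28 ± 0.11 in unheated wildtype cells at 240 min. CHIP null cells unheated at 240 min (-1.59 ± 0.08) and wildtype cells heated for 30 min (-1.60 ± 0.07) overlapped.

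Il1r1 was higher in CHIP null cells in all 4 comparisons, without overlap in 3 of them. Its probe, A_51_P271503, read -0.08, -0.16 and 0.03 in unheated CHIP null cells at 30 min, against -0.82, -0.72 and -0.54 in wildtype cells, a difference of 0.62 (1.54-fold). The difference was 0.38 after 30 min of heat, 0.18 at 240 min unheated and 0.12 at 240 min heated. Il11 read 1.58, 1.61 and 1.52 in unheated CHIP null cells at 240 min, against 1.03, 0.89 and 1.18 in wildtype cells, a difference of 0.54. At 30 min its difference was only 0.21 at 37 °C, and after heat it was -0.14.

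Ptgs2 was lower in CHIP null cells heated for 30 min and higher at 240 min, without overlap, while unheated cells at 30 min overlapped. Its brighter probe, A_51_P254855, differed by -0.03 in unheated and -0.30 in heated cells at 30 min, and by 0.45 in unheated and 0.32 in heated cells at 240 min. The other Ptgs2 probe, A_52_P224760, followed it with -0.16, -0.39, 0.49 and 0.46, and the pair correlated at 0.98 over the 24 arrays. Neither Ptgs2 probe had a Cy3 reference well above background on any array. Il6 differed by 0.33, 0.03, 0.15 and 0.15 in the same order, without overlap in the first and the last. Il33, the ligand of ST2, differed by -0.24, 0.15, -0.21 and -0.13, with Cy5 well above background on only 11 of 24 arrays.

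The shared chain Il1rap and the antagonist Il1rn were dim, and their differences were small. The 2 tested Il1rap probes differed by -0.09 to 0.21 and the tested Il1rn probe by -0.05 to 0.04. Il1rap probe A_52_P467814 did not overlap in heated cells at 240 min (0.38 to 0.55 in CHIP null, 0.17 to 0.30 in wildtype cells). Nor did it in unheated cells at 30 min (0.21 to 0.27 against 0.09 to 0.18). Cy5 was well above background on 18 and 16 of 24 arrays for Il1rap and on 10 for Il1rn, which limits these values. Of the 5 Il1rap probes 3, of the 2 Il1rn probes 1 and of the 2 Slpi probes 1 were not well above background on all 3 arrays of any group and were not tested.

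Counted over probes, the genotypes did not overlap for 8 of 13 member probes at 30 min unheated (7 higher in CHIP null cells, 1 lower), where 41.1% of all tested probes did not overlap. The counts were 7 of 13 at 30 min heated (5 higher, 2 lower; 34.9% of all probes), 5 of 13 at 240 min unheated (all higher; 29.3%) and 6 of 13 at 240 min heated (all higher; 25.2%). Since these differences chose the members, nothing is read from the counts.

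**Figure D2:**
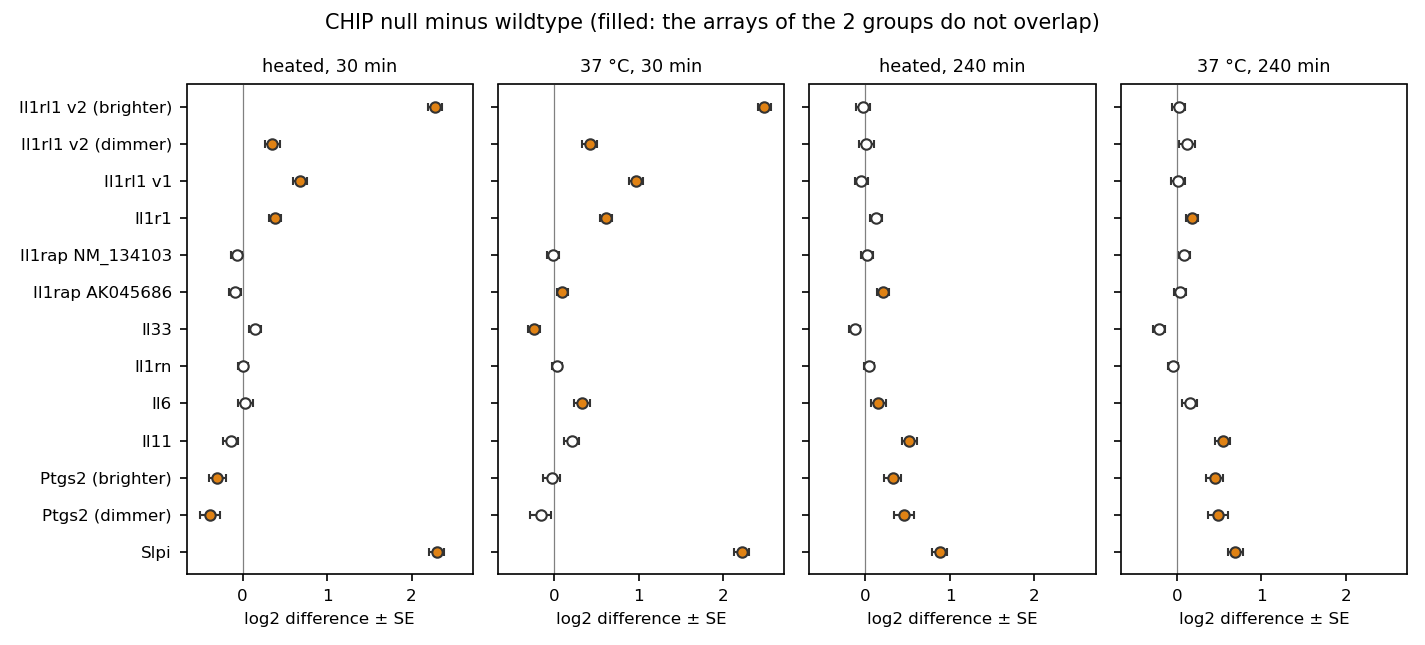
CHIP null minus wildtype log2 difference (x axis, ± SE) of the 13 tested member probes in the 4 pairs of groups. Filled points mark probes whose 3 arrays per group do not overlap. The Il1rl1 probes have filled points, all right of 0, only at 30 min. Slpi lies right of 0 in all 4 panels.

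Heating was the study's treatment. The members were chosen by genotype differences and not by their heat changes, but with earlier results of these data known. Il1r1 was the member that fell most steadily. In CHIP null cells it read -0.03, -0.19 and -0.21 after 240 min at 43 °C, against 0.34, 0.22 and 0.27 at 37 °C, and -0.42, -0.41 and -0.34 after 30 min, against -0.08, -0.16 and 0.03. In wildtype cells it read -0.29, -0.30 and -0.21 after 240 min of heat, against 0.07, 0.13 and 0.08 at 37 °C. The heated arrays lay below all unheated ones in these 3 comparisons. Il1r1 fell by 0.42 in CHIP null cells at 240 min (limma adjusted p = 2.6e-05), fell by 0.32 at 30 min (limma adjusted p = 0.00064) and fell by 0.36 in wildtype cells at 240 min (limma adjusted p = 0.00022). These are 1.34-fold, 1.25-fold and 1.28-fold changes, and they passed the test under each alternative processing and without each array in turn. In wildtype cells at 30 min Il1r1 read -0.77, -0.79 and -0.74 after heat, against -0.82, -0.72 and -0.54 at 37 °C, which overlapped and did not pass the test. With the scanner software's ratio that change was -0.42 and passed (adjusted p = 0.0044).

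Under heat the variant 1 probe of Il1rl1 was called in 3 of the 4 comparisons, and neither variant 2 probe was called in any. Variant 1 and variant 2 here name the transcript a probe is assigned to, and which exons the probes read was not examined. The variant 1 probe read 1.14, 0.83 and 0.95 in CHIP null cells after 240 min of heat, against 1.48, 1.50 and 1.38 at 37 °C. After 30 min of heat it read 0.20, 0.17 and 0.38, against 0.45, 0.72 and 0.76. In wildtype cells at 240 min it read 1.18, 1.01 and 0.88 after heat, against 1.52, 1.47 and 1.33. It fell by 0.48 in CHIP null cells at 240 min (limma adjusted p = 0.00012), by 0.39 at 30 min (adjusted p = 0.001) and by 0.42 in wildtype cells at 240 min (adjusted p = 0.00067), all without overlap. The brightest variant 2 probe changed by 0.07, -0.17 and 0.12 in the same comparisons and by 0.04 in wildtype cells at 30 min, and passed in none of them. Variant 1 changed by -0.10 in wildtype cells at 30 min (limma adjusted p = 0.51). With the scanner software's ratio both passed there, the variant 2 probe at 0.39 (adjusted p = 0.04) and variant 1 at -0.64 (adjusted p = 0.024). With the scanner software's ratio that probe instead rose by 0.54 in CHIP null cells at 30 min (limma adjusted p = 0.0032), with median centring it fell by 0.61 (adjusted p = 0.001). It also passed without the first heated CHIP null array (-0.24, adjusted p = 0.036). The variant 1 fall no longer passed with the scanner software's ratio in wildtype (-0.42, limma adjusted p = 0.13) and in CHIP null cells at 240 min (-0.50, adjusted p = 0.066), nor with slide as a block in wildtype cells at 240 min (-0.26, adjusted p = 0.19).

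The difference between the probes' heat changes, variant 1 minus the brightest variant 2 probe, was -0.54 in CHIP null cells at 240 min and -0.22 at 30 min. In wildtype cells it was -0.53 at 240 min and -0.14 at 30 min. These 4 differences were averaged. Their mean was -0.36, with p = 0.00034 in an exact two-sided permutation test that exchanged heated and unheated arrays within each genotype and time. Against the dimmer variant 2 probe the mean was -0.34, with an exact permutation p of 0.00055. That comparison reuses the variant 1 probe, so it is no separate support. The dimmer probe had Cy5 well above background on no wildtype array at 30 min, and Cy3 on no array at all. The permutation test was chosen after the probes' values were seen, so its p-values are a description only. With the scanner software's ratio the first mean was -0.89. Heated and unheated arrays stood mostly on different slides, which the exchange ignored, so both p-values mix slide with heat. Each comparison had 1 slide with both treatments, where 1 treatment had 1 array. There variant 1 changed by -0.40, -0.44, -0.26 and -0.16 in the order above. The brightest variant 2 probe changed by 0.10, -0.03, 0.22 and 0.24.

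Slpi rose with heat in CHIP null cells. At 240 min it read -1.18, -1.31 and -1.09 after heat, against -1.50, -1.65 and -1.61 at 37 °C, a rise of 0.39 (1.31-fold, limma adjusted p = 0.0023) with no overlap. With median centring this change was 0.07 (adjusted p = 0.76). At 30 min it read 0.62, 0.81 and 0.69 after heat, against 0.19, 0.34 and 0.68, which overlapped, with a change of 0.30 (limma adjusted p = 0.015). That call ended with a smaller offset (0.32, adjusted p = 0.058), with the scanner software's ratio (0.34, adjusted p = 0.063), with slide as a block (0.22, adjusted p = 0.23), and without the first unheated (0.20, adjusted p = 0.14), the second unheated (0.27, adjusted p = 0.055) or the second heated array (0.25, adjusted p = 0.08). With median centring, which put the median change of all probes at -0.15 in place of 0.02, it turned to -0.11 (limma adjusted p = 0.61).

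In wildtype cells the Slpi change was 0.21 at 240 min (limma adjusted p = 0.093) and 0.22 at 30 min (adjusted p = 0.13). The 240 min change passed when only the groups compared were fitted (adjusted p = 0.015), and the 30 min change passed without the third unheated array (0.33, adjusted p = 0.023). The test of the difference between the genotypes' heat changes gave 0.18 at 240 min (adjusted p = 1) and 0.08 at 30 min (adjusted p = 0.87). Probes with low ratios drifted upward with heat across the array: those with an unheated ratio of -2 to -1, where Slpi lay in CHIP null cells at 240 min, had a median change of 0.16 there, and those below -2 had 0.23. The part of this drift in the Slpi changes was not tested.

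Il6, the cytokine, changed in 1 comparison. In CHIP null cells at 30 min it read 0.20, 0.30 and 0.30 after heat, against 0.56, 0.48 and 0.97 at 37 °C, without overlap. It fell by 0.41 (limma adjusted p = 0.00074), and this call was kept under each alternative and without each array. Without the third unheated array, the one at 0.97, the change was -0.25 (adjusted p = 0.014). The other Il6 changes were -0.03 in CHIP null cells at 240 min, -0.02 in wildtype cells at 240 min and -0.11 in wildtype cells at 30 min. The probe had 10 spots per array, whose log2 ratios had a median SD of 0.12 within an array. Its Cy3 reference was not well above background on any of the arrays.

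Il11, a gp130 cytokine made by stromal cells, was the single member called in wildtype cells at 30 min. It read 1.23, 1.19 and 1.19 after heat, against 0.97, 0.94 and 0.73 at 37 °C, a rise of 0.32 without overlap (limma adjusted p = 0.015). The call ended with the scanner software's ratio (0.59, adjusted p = 0.13), with median centring (0.21, adjusted p = 0.24), without the third unheated array (0.25, adjusted p = 0.082) and without the first heated array (0.31, adjusted p = 0.052). In CHIP null cells Il11 read 1.20, 0.84 and 1.16 after 30 min of heat, against 1.21, 1.11 and 0.95, with no call.

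Ptgs2 read 2.89, 2.60 and 2.54 with its brighter probe in CHIP null cells after 240 min of heat, against 2.92, 2.77 and 3.14 at 37 °C. The ranges overlapped, and the fall of -0.27 had a limma adjusted p of 0.038, while the other probe changed by -0.16 (adjusted p = 0.29). The call ended under 4 alternatives, among them a smaller offset, and in 4 of the 6 fits that left out 1 array.

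Il33 passed the test in CHIP null cells at 30 min, with ratios of -0.36, -0.23 and -0.31 after heat, against -0.71, -0.59 and -0.73 at 37 °C, a change of 0.38 (limma adjusted p = 0.00034). The call ended with the scanner software's ratio (0.67, adjusted p = 0.3). No fold is given, because Cy5 was not well above background on any of these 6 arrays: it was 7.98, 5.33 and 4.29 units after heat, against 2.32, 6.31 and 6.20. The Cy3 reference signal was 49.6, 29.4 and 30.7 units after heat, against 49.4, 49.0 and 50.5 on the unheated arrays, and the 2 lower readings came from another slide. On the 1 slide that held both treatments the change was 0.32.

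Of the Il1rap probes, A_52_P467814 fell by 0.19 in wildtype cells at 240 min (limma adjusted p = 0.042), and that call ended under 4 alternatives and in 5 of the 6 fits that left out 1 array. The Il1rn probe was called in no heat comparison.

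Set against all probes, the members did not stand out in their number of heat calls. In CHIP null cells, 4 of 13 member probes were called at 240 min, where 35% of all tested probes were, and 5 of 13 at 30 min, where 30.6% were. In wildtype cells 3 of 13 were called at 240 min, against a background of 28.5%, and 1 of 13 at 30 min, against 11.4%. Over the 52 pairs of probe and comparison there were 13 calls, 4 higher and 9 lower after heat, and 8 of the 13 probes were called at least once. Over the 13 member probes the median change was -0.02 in CHIP null cells at 240 min, -0.13 at 30 min, -0.02 in wildtype cells at 240 min and 0.02 at 30 min.

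**Figure D3:**
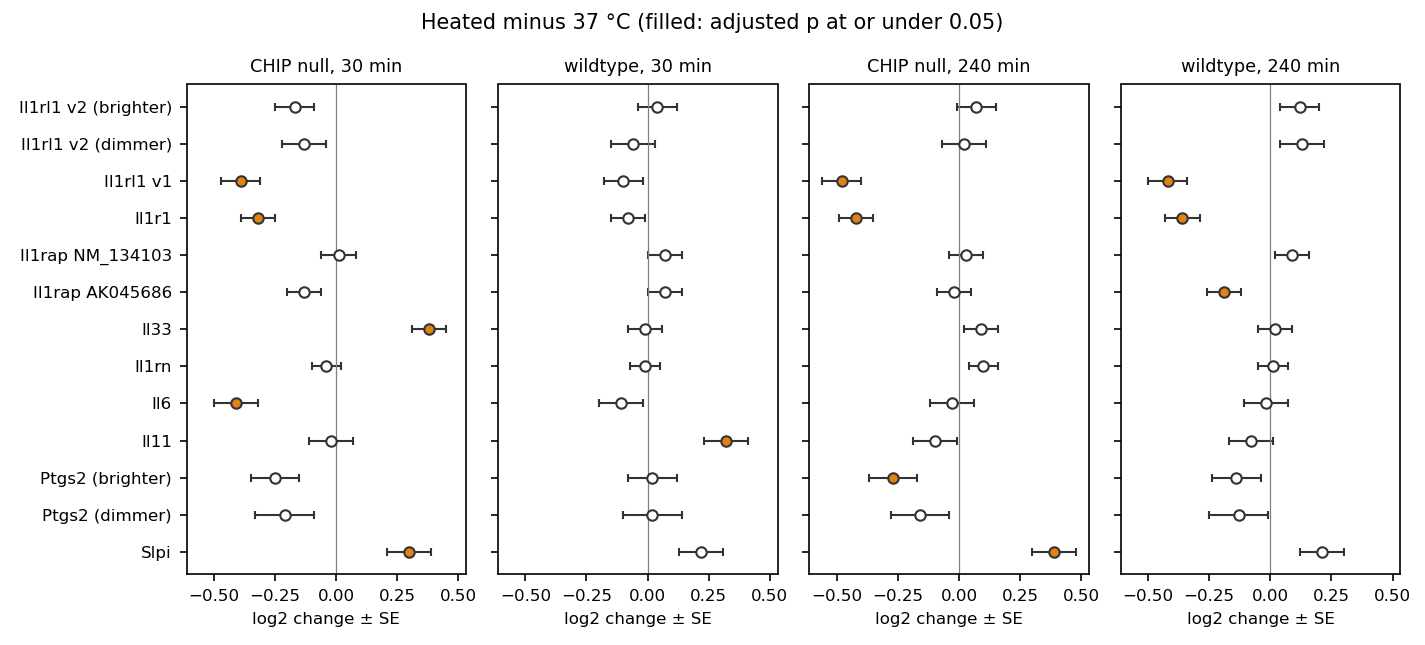
Heated minus unheated log2 change (x axis, ± SE) of the 13 tested member probes in each genotype at 30 and 240 min. Filled points passed limma at an adjusted p of 0.05; Il1r1 and the variant 1 probe of Il1rl1 carry filled points left of 0 in 3 of the 4 panels, and Slpi lies right of 0 in all 4.

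No member's heat change was called different between CHIP null and wildtype cells by the interaction term. At 30 min 0 of 13 member probes were called, against 0.212% of all probes, and the members' differences between the genotypes' heat changes lay between -0.35 for Il11 (limma adjusted p = 0.3) and 0.39 for Il33 (adjusted p = 0.13). At 240 min 0 of 13 were called and 0% of all probes, with differences of -0.12 to 0.18. At an unadjusted p of 0.05, limma counted 2093 of all 19356 probes at 30 min and 650 at 240 min.

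**Figure D4:**
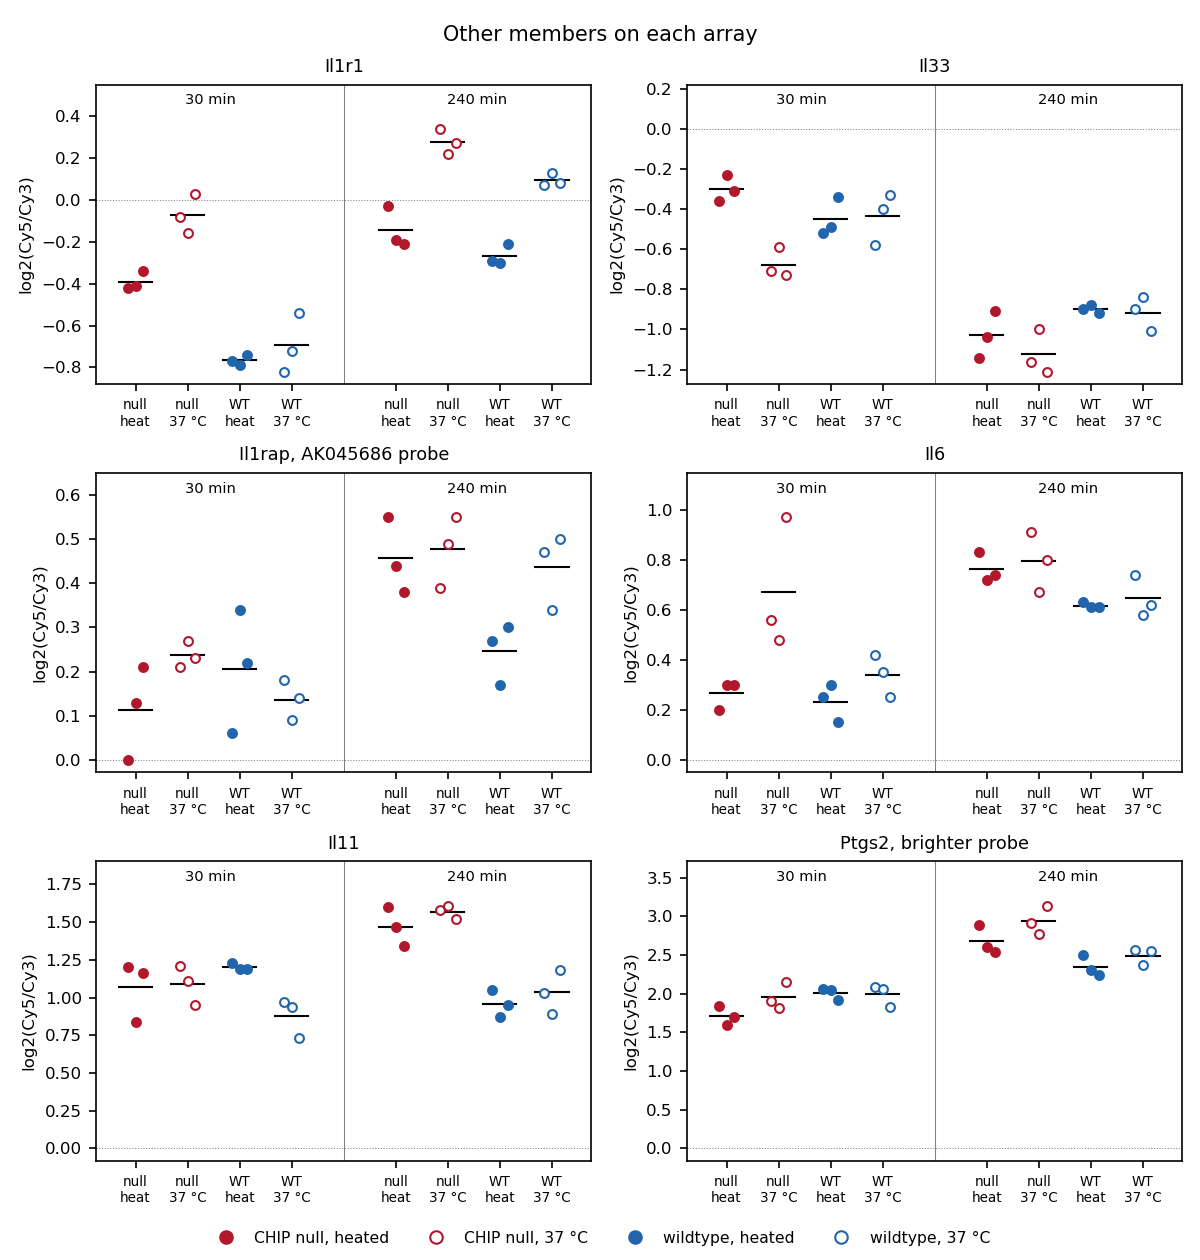
Log2 ratio of Cy5 over Cy3 on each array (points; bars mark group means, n = 3) for the tested probes of Il1r1, Il33, Il6 and Il11, 1 of Il1rap and the brighter of Ptgs2. The Il1r1 arrays after heat lie below their unheated arrays in 3 of the 4 pairs, and Ptgs2 lies higher at 240 than at 30 min.

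Between the unheated controls of the 2 times many probes differed, members and others. In CHIP null cells 10 of 13 member probes were called (8 higher and 2 lower at 240 min), where 47.4% of all probes were, and in wildtype cells 11 of 13 (9 higher, 2 lower), where 61% were. For Il1rl1 and Slpi these comparisons reuse the arrays that chose them and are a description only. Their probes are among the 13, so nothing is read from these counts. The brightest Il1rl1 probe was higher at 240 min by 3.26 in wildtype cells, which is 9.61-fold, and by 0.79 in CHIP null cells, which is 1.73-fold. The direction in CHIP null cells is not settled, as given above. Slpi was lower at 240 min by -1.99 in CHIP null cells and by -0.46 in wildtype cells, where the scanner software's ratio gave -0.11 and median centring -0.34.

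Among the members with smaller genotype differences, both Ptgs2 probes were higher at 240 min: the brighter by 0.99 in CHIP null cells (limma adjusted p = 1e-08) and by 0.50 in wildtype cells (adjusted p = 7.9e-05). With the scanner software's ratio the wildtype call ended (0.37, adjusted p = 0.16), and the other probe gave -0.47 in wildtype cells (adjusted p = 0.46) and 1.30 in CHIP null cells (adjusted p = 0.067). The Cy3 reference was well above background on 0 of 24 arrays for both Ptgs2 probes. Il1r1 was higher at 240 min by 0.34 in CHIP null cells (limma adjusted p = 1e-04) and by 0.79 in wildtype cells (adjusted p = 4.1e-11). No time change is read from Il33, whose Cy5 was well above background on 0 of 3 unheated CHIP null and 1 of 3 unheated wildtype arrays at 30 min. The counts above include Il33 among the probes called lower in both genotypes. Il11 was called higher in CHIP null cells (0.48, adjusted p = 5.7e-05), with 0.15 (adjusted p = 0.13) in wildtype cells. That call ended with a smaller offset (0.30, adjusted p = 0.19), and the sign turned with the scanner software's ratio (-0.22, adjusted p = 0.61). Il6 changed by 0.12 in CHIP null cells (limma adjusted p = 0.24) and was called higher in wildtype cells (0.30, adjusted p = 0.0031), a call that ended with the scanner software's ratio (0.68, adjusted p = 0.13) and with median centring (0.20, adjusted p = 0.085). Whether the genotypes differed in these was not tested. Time and slide cannot be told apart here.

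The genes whose levels over the 24 arrays were most like those of the brightest Il1rl1 probe, among 1143 probes whose group means span at least 1 log2 unit, were Ccl2 (Pearson r = 0.986), Ccnb1 (0.979), Trip13 (0.977), Steap1 (0.973) and the X-linked Eif2s3x (0.97). Ccl2, a chemokine, averaged 2.88 in unheated CHIP null cells at 30 min, against 1.40 in wildtype cells, and 3.23 in unheated CHIP null cells at 240 min, against 3.16 in wildtype cells. Those most like Slpi, of 1145 probes, were the fibroblast surface gene Thy1 (0.961), Sbsn (0.926), Crip1 (0.924), Tnn (0.908) and Aebp1 (0.903). Thy1 averaged 2.65 in unheated CHIP null cells at 30 min, against 2.07 in wildtype cells, and 2.18 in unheated CHIP null cells at 240 min, against 1.80 in wildtype cells. These correlations describe the steps between groups on shared slides and carry no test.

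The wider pathway was read by lists with 1 probe per gene, the brightest. Over all 13486 tested genes, 3170 rose and 1941 fell with heat in CHIP null cells at 240 min, 2950 and 1661 at 30 min, 2429 and 1683 in wildtype cells at 240 min, and 843 and 962 at 30 min. These rises depended on the scaling: with median centring in place of loess 19, 45, 87 and 22 genes rose in that order, the median over all genes was -0.18, -0.18, -0.03 and -0.09, and no gene of the lists below was called higher in any heat comparison. Falls then numbered 4742, 5139, 1801 and 548. With slide as a block 1165 genes rose and 1386 fell in CHIP null cells at 240 min, 1466 and 1050 at 30 min, 213 and 336 in wildtype cells at 240 min, and 136 and 231 at 30 min.

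Of the genes that carry the signal from IL-1 receptors to NF-kB, 28 of 31 were tested. After heat 3 rose and 8 fell in CHIP null cells at 240 min, 3 rose and 7 fell at 30 min, 3 rose and 7 fell in wildtype cells at 240 min, and 1 rose and 4 fell at 30 min. Their median change was -0.06, -0.08, -0.04 and -0.03 in that order, beside 0.07, 0.03, 0.06 and 0.01 over all 13486 tested genes. With median centring 17, 16, 8 and 2 of them fell, and with slide as a block 8, 2, 2 and 0. Nfkbia, the inhibitor that holds NF-kB in the cytoplasm, changed by -0.70 in CHIP null cells at 240 min (limma adjusted p = 1.3e-05), by -0.37 at 30 min (adjusted p = 0.0068), by -0.53 in wildtype cells at 240 min (adjusted p = 0.00043) and by -0.12 at 30 min (adjusted p = 0.5). The 240 min calls of Nfkbia held under a smaller offset, the scanner software's ratio, median centring and slide as a block, and the 30 min call ended with slide as a block (-0.22, adjusted p = 0.31). Irak1, a receptor-proximal kinase, rose by 0.48 in CHIP null cells at 30 min (limma adjusted p = 4.9e-05) and by 0.43 in wildtype cells at 30 min (adjusted p = 0.00061), or 0.10 (adjusted p = 0.46) and 0.30 (adjusted p = 0.083) with median centring; with slide as a block the wildtype value was 0.36 (adjusted p = 0.055). Tab3, an adaptor of the TAK1 kinase, fell by 0.41 in CHIP null cells at 240 min (limma adjusted p = 0.00011) and fell by 0.46 in wildtype cells at 240 min (adjusted p = 3.1e-05). With slide as a block the wildtype value was -0.29 (adjusted p = 0.075), and other scalings kept both calls.

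Of the protease inhibitors listed with Slpi, 14 of 21 were tested and none was called lower after heat. Among CHIP null cells 6 rose at 240 min and 12 at 30 min, and in wildtype cells 3 rose at 240 min and 1 at 30 min, with medians of 0.22, 0.30, 0.13 and 0.12. Wfdc2, a WAP-domain protein like Slpi, rose by 0.36 in CHIP null cells at 240 min (limma adjusted p = 0.0023) and by 0.32 at 30 min (adjusted p = 0.0053), Wfdc1 by 0.38 (adjusted p = 0.00011) and 0.27 (adjusted p = 0.0036), and the serpin Serpina3n by 0.31 at each time (adjusted p = 0.0062 and 0.0066). With median centring the list's medians were -0.05, -0.01, 0.05 and 0, with 0 genes called higher and at most 1 lower. The scanner software's ratio called 1, 6, 1 and 2 genes higher, among them none of these 3 genes in CHIP null cells, and slide as a block 4, 4, 0 and 0, without Wfdc2.

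Genes of the prostanoid pathway around Ptgs2 numbered 13 tested of 19. At 240 min 4 rose in CHIP null cells, and at 30 min 2 rose and 1 fell. In wildtype cells 6 rose at 240 min and 0 were called at 30 min. The prostaglandin D synthase Ptgds rose by 0.46 in CHIP null cells at 240 min (limma adjusted p = 8.4e-05) and by 0.22 in wildtype cells (adjusted p = 0.039), and the prostacyclin synthase Ptgis by 0.27 (adjusted p = 0.0097) and 0.25 (adjusted p = 0.018). The list's medians were 0.12 in CHIP null cells at 240 min, -0.04 at 30 min, 0.17 in wildtype cells at 240 min and 0.05 at 30 min, and with median centring -0.17, -0.16, 0.02 and -0.03. The scanner software's ratio called 3, 2, 1 and 1 genes higher and slide as a block 3, 1, 0 and 0.

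Of the gp130 genes, which relay Il6 and Il11, 16 of 20 were tested. The shared receptor chain Il6st fell by 0.35 in CHIP null cells at 240 min (limma adjusted p = 0.001) and fell by 0.40 in wildtype cells (adjusted p = 0.00038). The kinase Jak1 fell by 0.39 in CHIP null cells (adjusted p = 0.00012) and fell by 0.29 in wildtype cells (adjusted p = 0.0022) at that time. With slide as a block the CHIP null value of Il6st was -0.21 (adjusted p = 0.13) and the wildtype value of Jak1 was -0.28 (adjusted p = 0.11). Over the list, 4 rose and 4 fell in CHIP null cells at 240 min, 2 rose and 1 fell at 30 min, 3 rose and 4 fell in wildtype cells at 240 min, and 3 rose and 0 fell at 30 min, with medians of 0.06, -0.04, 0.02 and 0. With median centring 0 rose and 6, 8, 3 and 0 fell in that order, with medians of -0.19, -0.28, -0.05 and -0.06, and with slide as a block 2, 2, 1 and 0 rose and 1, 2, 1 and 0 fell.

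Fibroblast genes induced by IL-1 numbered 14 tested of 22, with 2 called higher and 0 lower in CHIP null cells at 240 min, 4 and 4 at 30 min, 1 and 0 in wildtype cells at 240 min, and 0 and 0 at 30 min. The adhesion molecule Icam1 rose by 0.23 in CHIP null cells at 240 min (limma adjusted p = 0.0043) and by 0.27 at 30 min (adjusted p = 0.0013), or -0.09 (adjusted p = 0.42) and -0.05 (adjusted p = 0.71) with median centring. Blocking on slide gave 0.20 (adjusted p = 0.092) and 0.23 (adjusted p = 0.065). The list's medians were 0.05, 0, 0 and 0.03 in the order above. With median centring 0 were higher and 4, 6, 0 and 0 lower, with medians of -0.23, -0.35, -0.05 and -0.07. Of 12 genes that process IL-1 family cytokines 7 were tested, and 3 rose in each comparison but wildtype cells at 30 min. The inflammasome adaptor Pycard rose by 0.27 in CHIP null cells at 240 min (limma adjusted p = 0.025) and by 0.25 in wildtype cells (adjusted p = 0.043), calls that a smaller offset, the scanner software's ratio and median centring each ended. Of the 8 other IL-1 family ligands only Il18 was tested, which rose by 0.26 in CHIP null cells at 240 min (limma adjusted p = 0.00088) and by 0.20 at 30 min (adjusted p = 0.0075), or 0.03 and 0.04 with median centring (adjusted p = 0.67 and 0.59). Blocking on slide gave 0.22 and 0.21 (adjusted p = 0.063 and 0.075). Il18 rose by 0.15 in wildtype cells at 240 min (limma adjusted p = 0.049), a call that median centring, the scanner software's ratio and slide as a block each ended. It changed by 0.11 in wildtype cells at 30 min (adjusted p = 0.23), and no array showed Il1a or Il1b well above background. Of the 8 other receptors and decoys of the family 2 were tested. Sigirr, which dampens IL-1 receptor signalling, rose by 0.25 in CHIP null cells at 240 min (limma adjusted p = 0.016), and this pair of genes gave no other heat call. With median centring, the scanner software's ratio or slide as a block none of them was called higher.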

How the data were processed

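The 24 arrays were 2-colour Agilent 44K oligonucleotide arrays with 500 ng of total RNA per sample, per the labels. The deposited intensity values are mean spot and median background signals quantified by Agilent Feature Extraction 9.1.3.1, per the file headers, and flags for signals well above background, saturated or outlying come with them. The deposited log10 ratio of the same files holds the scanner software's own background and dye correction, per the file headers, and served as an alternative. The authors' deposited value table of 28139 probes is a score here, since its scale, centring and direction are unstated. Its column medians run from -0.05 to 0.02. Set against the scanner files as log10 ratios over the natural log of 2, heated columns less their controls, each column correlated at 0.9975 or more with the file of the other time label and at 0.9004 or less with that of its own. The sources used here do not say which time label holds, and the text uses the scanner files' times. The table held 13 of the member probes and gave no other value printed here.

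Samples were grouped by their titles. With limma 3.58.1 in R 4.3.3, background was corrected by normexp at an offset of 50 and ratios were normalized within arrays by loess, with control spots and 333 outlier spots at weight 0. Spots of a probe were averaged. Probes with Cy5 well above background on all 3 arrays of at least 1 group were kept, which left 19356. A mean per group was fitted over the 8 groups with eBayes (16 residual degrees of freedom). Benjamini-Hochberg adjustment ran over all 19356 probes in each comparison, with 0.05 as the threshold. A member without overlap has every array of 1 group above every array of the other. Probes were named by accession through the RefSeq table for GRCm38.p6 where they matched (22951), by symbol (6659) or synonym (3109), and otherwise as in the files (8455). The number of arrays limits the precision.

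The members and gene lists were chosen with earlier results of these data known. Named genes are all member probes, the 5 genes most like the brightest Il1rl1 and Slpi probes, and up to 3 genes per list called in at least 2 heat comparisons, with the largest mean change. Sex-linked genes are shown for their levels. The fit was tested on simulated data. Alternatives were an offset of 10, the scanner software's ratio, median centring, no filter on dim probes, the brightest probe per gene, only the groups compared, slide or replicate number as a block, and each array left out. The pathway lists' alternatives were chosen after seeing the data. Samples were not paired by replicate number in the main fit. Over 24 same-numbered pairs the correlations of deviations lay between -0.23 and 0.55, and 9 passed 0.1. The highest, 0.55 and 0.42, joined heated arrays of the 2 genotypes at 240 min. Arrays of unlike number were not compared, so whether the numbers pair the samples is not settled.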

Additional observations from a re-analysis of the deposited data

How the results depend on the processing

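The counts of called member probes moved by more than 1.5 times under these settings. For heat in wildtype cells at 30 min (1 of 13), the scanner software's ratio gave 3 and median centring gave 0. For wildtype cells at 240 min (3 of 13), the scanner software's ratio, the brightest probe per gene and slide as a block gave 1 each. For CHIP null cells at 240 min (4 of 13), the scanner software's ratio gave 2. For time in wildtype cells (11 of 13), the scanner software's ratio gave 5, and median centring and the brightest probe per gene gave 7 each. For time in CHIP null cells (10 of 13), the brightest probe per gene gave 6. That setting left 17 of the 26 genotype differences without overlap, since it tests fewer probes. Signs turned, for values called in at least 1 of the settings, for A_52_P467232 of Il1rap (-0.89) and A_51_P339793 of Il1rl1 (0.54) with the scanner software's ratio, and for Slpi (-0.11) with median centring, all for heat in CHIP null cells at 30 min. For time, the scanner software's ratio turned A_52_P224760 of Ptgs2 in wildtype cells (-0.47), and Il11 (-0.22), A_51_P339793 of Il1rl1 (-0.44) and Il33 (0.62) in CHIP null cells. The cause was not tested.

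Leaving out 1 array at a time gave 3 to 4 heat calls in CHIP null cells at 240 min, 4 to 7 at 30 min, 2 to 3 in wildtype cells at 240 min and 0 to 1 at 30 min, 10 to 11 time calls in CHIP null cells and 11 to 12 in wildtype cells, and 0 to 0 interaction calls. The Il1rl1 variant shift then lay between -0.39 and -0.33. The single heat values over all alternatives cover 52 pairs of probe and comparison, of which 13 were called in the main fit. Of these values 661 were unchanged, many of them for pairs called in neither fit. In 32 the call was lost, which could happen only to the 13 called pairs, in 16 it was gained, and 3 reversed.

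With replicate number as a block there were 6 calls in place of 5 in CHIP null cells at 30 min, and the other heat, time and interaction counts did not change. Over all probes, the heat calls of 2197 in wildtype cells at 30 min became 696 with median centring and 445 with slide as a block, and 1104 to 2241 without 1 array. The 5512 at 240 min became 3082 with the scanner software's ratio, 2688 with median centring and 706 with slide as a block, and 3430 to 5467 without 1 array. The 5923 in CHIP null cells at 30 min became 3157 with slide as a block, and the 6776 at 240 min became 3381 with the scanner software's ratio and 3383 with slide as a block, and 3835 to 8083 without 1 array. The 41 interaction calls at 30 min became 81, 5, 15 and 10 with the scanner software's ratio, median centring, only the groups compared and slide as a block, and 15 to 227 without 1 array. The 9175 time calls in CHIP null cells became 5885 with the smaller offset and 3631 with the scanner software's ratio.

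The share of higher calls after heat was 59.4% and 61.2% in CHIP null cells at 240 and 30 min and 57.2% and 47.6% in wildtype cells. Median centring made it 0.357%, 0.948%, 3.76% and 4.02%, and the scanner software's ratio 38.7%, 42.8%, 41.2% and 38.5%. Slide as a block could not be fitted for time. The dimmer arrays at 30 min limit what can be said of Il33, Il1rap, Il1rn and the dim Il1rl1 probe.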
